A study of Mus musculus with 12 samples.

Results

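The 10 genes described here encode the secreted matrix of the perineuronal net: the 4 lecticans *Acan*, *Bcan*, *Ncan*, and *Vcan*, the 3 link proteins *Hapln1*, *Hapln2*, and *Hapln4*, the tenascins *Tnr* and *Tnc*, and the hyaluronan synthase *Has3*. They were chosen by symbol from the 55418 genes of the count table, and all 10 were found and passed the filter on low counts in every comparison. RNA was measured in the brainstem of 12 outbred Cartworth Farms White (CFW) mice at P15, with 1 library per mouse. Each sex held 3 mice with saline and 3 with morphine, given repeated injections from birth, and the morphine mice were killed in spontaneous withdrawal. The comparisons addressed whether neonatal morphine exposure changed brainstem transcripts in both sexes together, in females, in males, and to a different extent between the sexes. The labels do not give the dam, so littermates cannot be told apart, and the RNA extraction text names spinal cords where the tissue labels name brainstem.

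The perineuronal net is a lattice of extracellular matrix around the cell body and proximal dendrites of certain neurons, often fast-spiking ones, and it assembles as postnatal critical periods close. Hyaluronan, spun out at the membrane by hyaluronan synthases, forms the backbone; lecticans, which are chondroitin sulfate proteoglycans, bind it at their N termini; link proteins lock that bond; and tenascins cross-link the lecticans at their C termini. In the brainstem, such nets surround motor neurons and large auditory and vestibular neurons, while brevican, versican, and the link protein of *Hapln2* also occur in the matrix at nodes of Ranvier.

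In the GENCODE M21 annotation of GRCm38, each lectican gene lay beside a link protein gene, with no other protein-coding gene between. *Bcan* (chr3:87987531-88000230, minus strand) and *Hapln2* (chr3:88021750-88027583, minus strand) were 21519 bp apart. *Ncan* (chr8:70093085-70120873, minus strand) and *Hapln4* (chr8:70083457-70090862, plus strand) were 2222 bp apart, and *Vcan* (chr13:89655312-89742509, minus strand) and *Hapln1* (chr13:89539796-89611652, plus strand) were 43659 bp apart. *Acan* (chr7:79053483-79115099, plus strand) ended 2 bp from *Hapln3*, a link protein gene outside the 10. The other 3 genes lay apart: *Tnr* at chr1:159523769-159931729 on the plus strand, *Tnc* at chr4:63959785-64047015 on the minus strand, and *Has3* at chr8:106870242-106884566 on the plus strand. Exons on the opposite strand overlapped 3 of them, with 443 bp of *Gm38039* in *Tnr*, 176 bp of *8030451A03Rik* in *Tnc*, and 352 bp of *Chtf8* in *Has3*. These made up 3.44%, 2.26%, and 5.52% of the exon length, and since the strand setting of the counting is not given in the sources used here, reads there cannot be told apart.

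The transcripts differed widely in base composition, from 60.7% GC in *Bcan*, 59.5% in *Hapln2*, 57% in *Hapln4*, 55.1% in *Ncan*, 54.8% in *Acan*, and 52.5% in *Tnc* to 49% in *Has3*, 47.7% in *Tnr*, 43.7% in *Vcan*, and 39.8% in *Hapln1*. This matters below because the libraries differed in how their counts depended on GC content. Stretches of 150 bases of coding sequence show the contrast for the most GC-rich member, for *Tnc*, and for the most AT-rich member. They are bases 298 to 447 of the *Bcan* coding sequence (60.7% GC), bases 1312 to 1461 of *Tnc* (52.7% GC), and bases 172 to 321 of *Hapln1* (44.7% GC), on the sense strand of GENCODE M21 transcripts, with G and C in capitals.
Bcan: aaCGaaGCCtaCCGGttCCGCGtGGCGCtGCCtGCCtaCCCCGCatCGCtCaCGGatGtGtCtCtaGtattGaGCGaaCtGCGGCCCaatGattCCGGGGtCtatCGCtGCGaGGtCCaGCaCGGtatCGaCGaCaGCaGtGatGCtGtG
Tnc: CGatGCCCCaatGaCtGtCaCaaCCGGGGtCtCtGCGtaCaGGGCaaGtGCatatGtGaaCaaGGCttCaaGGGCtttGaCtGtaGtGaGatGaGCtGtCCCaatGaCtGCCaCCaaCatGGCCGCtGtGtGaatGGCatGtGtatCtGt
Hapln1: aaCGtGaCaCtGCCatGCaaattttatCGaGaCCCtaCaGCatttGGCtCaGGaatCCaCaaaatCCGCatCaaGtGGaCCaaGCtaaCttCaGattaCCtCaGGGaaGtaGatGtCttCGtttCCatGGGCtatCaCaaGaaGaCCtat

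Library totals ran from 27850565 to 48097947 counts. Base composition and one label touch the results below. The slope of a gene's log2 count on its GC content, relative to the mean of the 12 libraries, was 0.436 and 0.556 per 10 percentage points of GC in saline males 1 and 2 and -0.532 in saline male 3, against -0.327 to 0.263 in the other 9 libraries, so the 3 saline males held the extremes in both directions. The library labelled morphine male 6 held 380.0 CPM of *Xist* and 12.8 CPM of the Y-linked *Ddx3y*, whereas the other males had 0.398 to 2.71 CPM and 118.0 to 199.0 CPM and the females had 547.0 to 970.0 CPM and 0.0576 to 0.729 CPM. That library stands between the sexes on both genes, and results that rest on it are given with and without it below.

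Per exon length, *Bcan* was the most abundant of the 10 and *Tnc* the least. The mean level of *Bcan*, the lectican brevican, was 55.6 ± 26.1 RPKM (SD, n = 12), and it was above that of *Hapln4* in 11 of 12 mice. *Hapln4*, *Tnr*, and *Ncan* were close together at 33.1 ± 3.72, 32.7 ± 4.05, and 32.6 ± 3.52 RPKM (SD, n = 12). *Hapln4* exceeded *Tnr* in 7 of the 12 mice and *Tnr* exceeded *Ncan* in 6, so these neighbors did not differ beyond their spread. *Hapln1* followed at 20.1 ± 3.18 RPKM, above *Hapln2* (16.7 ± 3.8 RPKM) in 8 mice, a difference that was also within the spread. *Vcan* had 7.47 ± 1.2 RPKM, lower than *Hapln2* in all 12 mice. The lowest 3 were *Acan*, whose product aggrecan is the lectican most used to identify nets, at 1.95 ± 0.278 RPKM, *Has3* at 1.52 ± 0.198 RPKM, and *Tnc* at 1.25 ± 0.231 RPKM. *Acan* exceeded *Has3* in 12 of 12 mice, and *Has3* exceeded *Tnc* in 11 of 12. Among all tested genes, the level of *Bcan* was higher than that of 96.5% and the level of *Tnc* higher than that of 34.0%, and these are whole-tissue levels that do not distinguish fewer cells of a type from less RNA per cell.

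**Figure D1:**
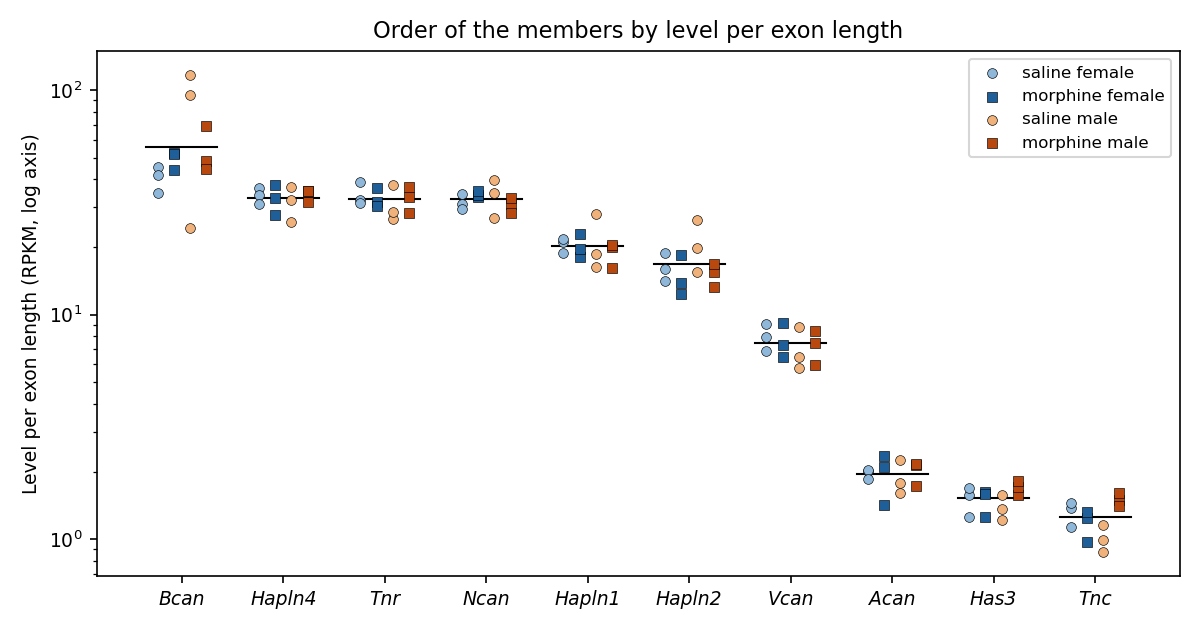
Level per exon length (RPKM, log axis) of each of the 10 genes, ordered by the mean of the 12 mice (horizontal line), with 1 point per mouse and 3 mice in each of the 4 groups. *Bcan* spans from 24.4 to 117.0 RPKM within the saline males alone, while *Hapln4*, *Tnr*, and *Ncan* share nearly the same mean.

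The lecticans were next compared mouse by mouse, on the scale of CPM after TMM normalization. *Bcan* had 383.9, 476.1, and 99.3 CPM in saline males 1, 2, and 3, 195.3, 180.7, and 279.7 CPM in morphine males 4, 5, and 6, 184.8, 170.6, and 140.7 CPM in saline females 4, 5, and 6, and 212.7, 177.9, and 210.5 CPM in morphine females 1, 2, and 3. Both the highest and the lowest of the 12 values were saline males, where the highest was 4.8 times the lowest. *Ncan*, which encodes neurocan, a lectican of the juvenile brain, had 251.1, 286.0, and 193.7 CPM in saline males and 222.4, 202.6, and 237.3 CPM in morphine males. Its female values were 247.9, 224.7, and 212.2 CPM with saline and 239.0, 243.6, and 254.3 CPM with morphine, and the groups overlapped in both sexes. *Vcan*, which encodes versican, ran from 83.6 to 132.7 CPM and *Acan* from 10.6 to 17.6 CPM over the 12 mice. In both, the saline and morphine values overlapped within each sex, and the lowest *Acan* value was that of morphine female 1.

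The link proteins were in a narrower range than *Bcan*. *Hapln2*, whose product binds hyaluronan at nodes of Ranvier and is made by oligodendrocytes, had 46.6, 62.5, and 36.7 CPM in saline males against 31.3, 36.4, and 39.8 CPM in morphine males. In females it had 33.3, 44.5, and 37.9 CPM with saline and 32.6, 43.6, and 29.5 CPM with morphine. In males saline male 3 fell among the morphine values and the other saline males lay above them, while the female values were interleaved. *Hapln1*, the link protein of most nets, was at 94.9 to 134.5 CPM in 11 mice and at 164.5 CPM in saline male 3. *Hapln4*, which links brevican in nets of the hindbrain, was lowest in saline male 3 (101.0 CPM) and highest in morphine female 3 (148.1 CPM). In both genes the saline and morphine values overlapped within each sex.

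Of the tenascins, *Tnr*, which cross-links lecticans in the adult net, ranged from 340.9 CPM in saline male 1 to 500.8 CPM in saline female 6, with overlapping groups in both sexes. *Tnc*, the tenascin of immature tissue and of reactive glia, had 6.83, 8.95, and 7.69 CPM in saline males and 11.6, 12.5, and 10.9 CPM in morphine males. All 3 morphine males lay above all 3 saline males. In females *Tnc* had 8.8, 10.7, and 11.3 CPM with saline and 9.65, 10.3, and 7.52 CPM with morphine, and the groups overlapped. *Has3*, a synthase that makes hyaluronan, had 8.7, 7.77, and 10.0 CPM in saline males and 10.0, 10.9, and 11.6 CPM in morphine males. Its female values were 9.99, 8.05, and 10.8 CPM with saline and 7.96, 10.3, and 10.1 CPM with morphine. Among males the highest saline and lowest morphine *Has3* values were both 10.0 CPM, and among females the groups were interleaved. *Tnc* rested on 205 to 409 reads per library and *Has3* on 259 to 392, against 3240 to 21760 for *Bcan*, so that counting error was a larger part of the spread in the former (5.31%, 5.46%, and 1.26% of the level).

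**Figure D2:**
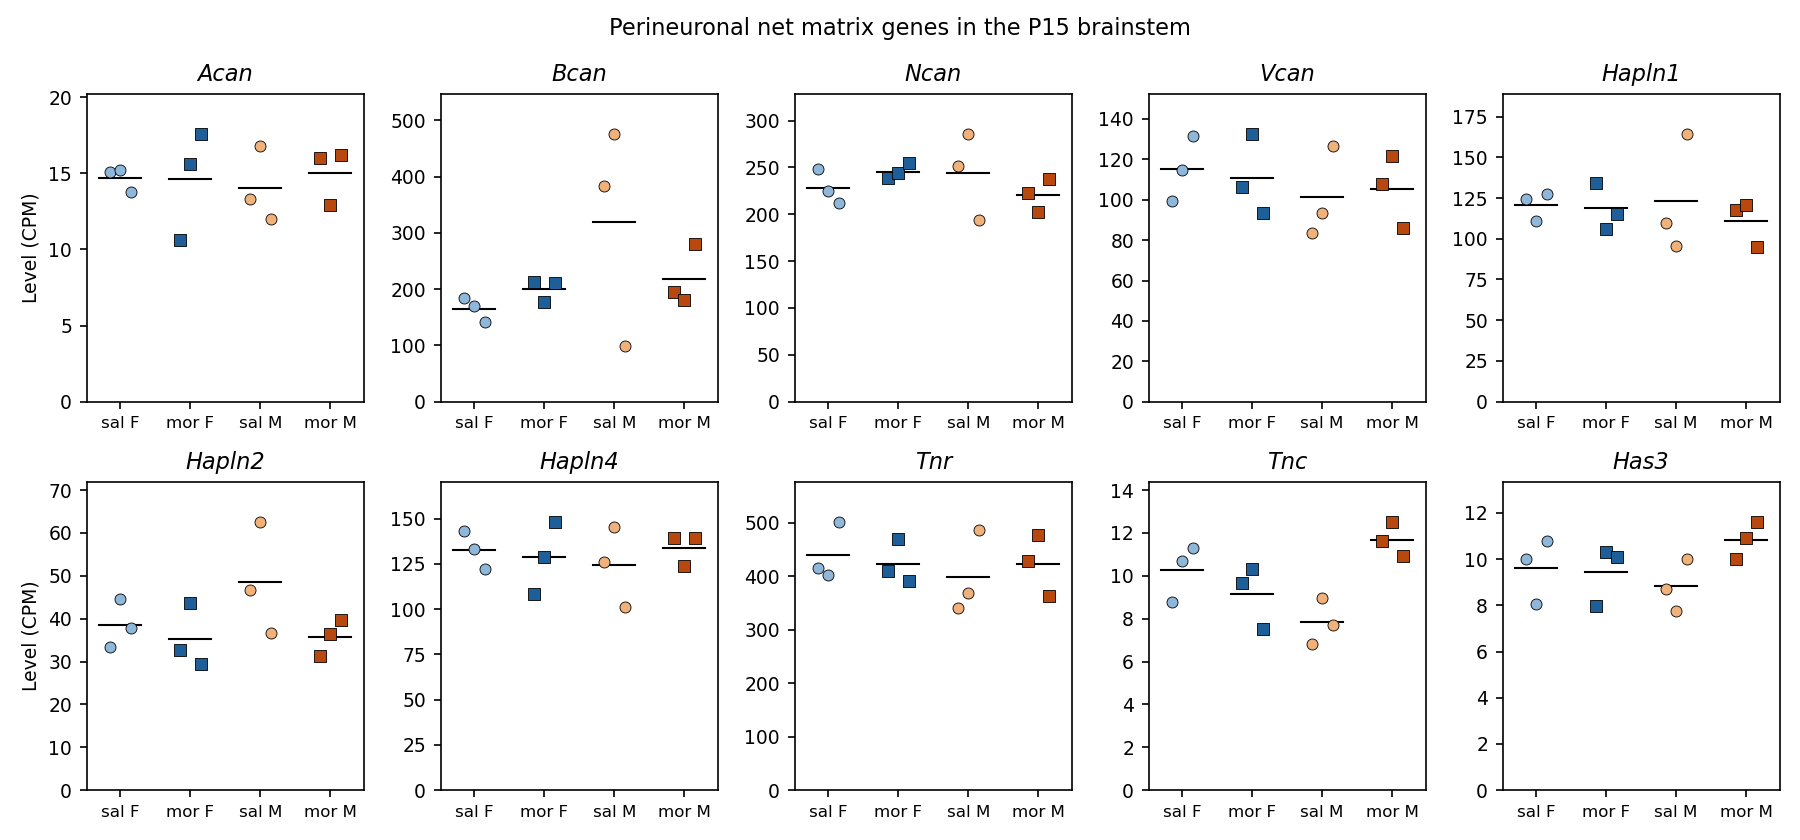
Level (CPM after TMM normalization, axes from 0) of each gene in each mouse, with saline as circles, morphine as squares, and the group mean as a line (sal, saline; mor, morphine; F, females; M, males; n = 3 each). The 3 morphine males lie above the 3 saline males for *Tnc*, and the saline males spread most widely for *Bcan*, from 99.3 to 476.1 CPM.

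Levels of several members moved with the GC dependence of the library. Over the 12 mice, the log2 level of *Bcan* and the GC slope of the library had a Pearson's r of 0.985. Other GC-rich members followed it in sign, with 0.823 for *Ncan*, 0.578 for *Hapln4*, 0.482 for *Hapln2*, and 0.39 for *Acan*. The members lowest in GC content, *Tnr*, *Vcan*, and *Hapln1*, had values of -0.888, -0.866, and -0.804, and *Has3* and *Tnc* had -0.378 and -0.292. *Tnr*, at 47.7% GC, was close to *Has3*, at 49%, in GC content but not in r, and the median over all genes was 49.5%. These are descriptions without a test, since both quantities come from the same 12 libraries. Across the 10 genes, the r of a gene's GC content with that correlation was 0.904, and genes are not independent replicates. When loess offsets for GC content and exon length were applied, the SD of log2 *Bcan* within groups fell from 0.639 to 0.163, that of *Vcan* from 0.264 to 0.108, and that of *Tnr* from 0.205 to 0.117. Those of *Hapln2* and *Tnc* went from 0.271 to 0.37 and from 0.184 to 0.22, so the offsets did not narrow every member. The median over 18586 genes was 0.285 without the offsets and 0.196 with them. After the offsets, *Bcan* still had an r of 0.915 with the library slope and *Tnr* one of -0.779, while the other GC-rich members had changed sign, to -0.621 for *Ncan*, -0.796 for *Hapln4*, -0.763 for *Hapln2*, and -0.481 for *Acan*. *Tnc* had -0.609, so values with the offsets still moved with the slope.

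**Figure D3:**
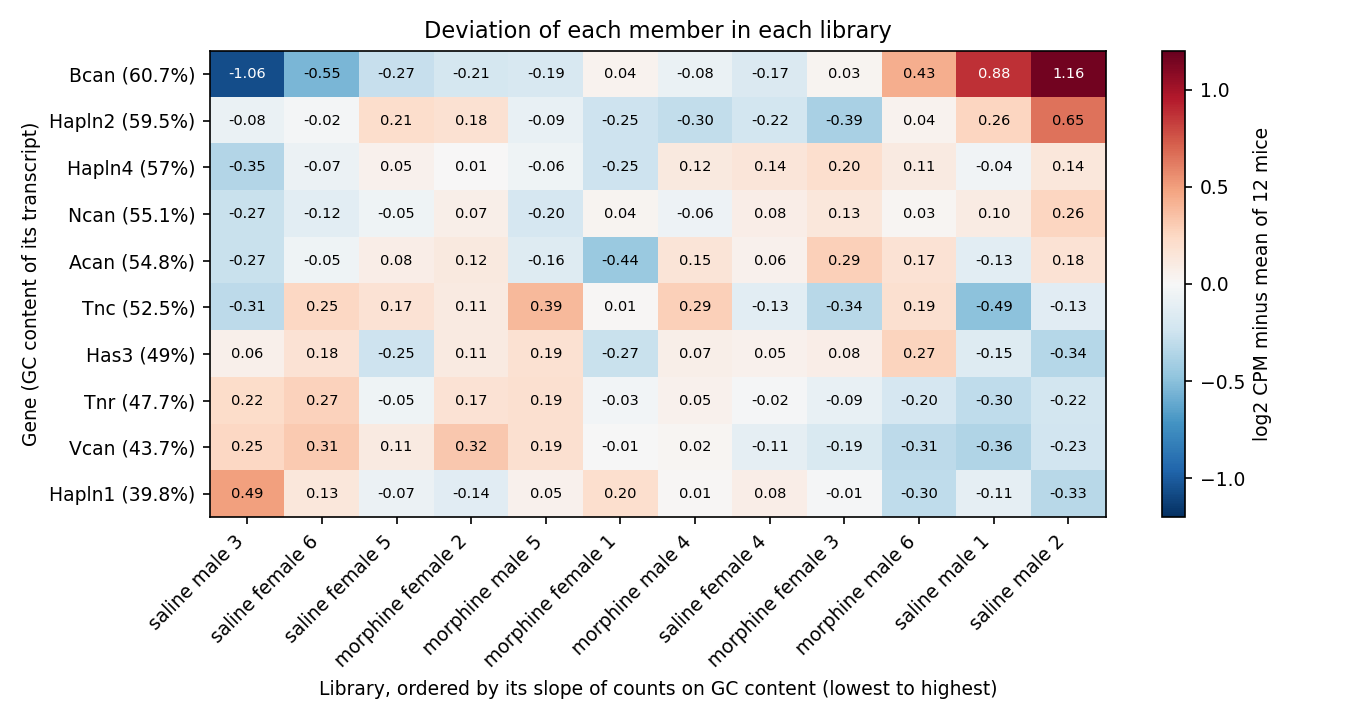
Deviation of log2 CPM from the mean of the 12 mice for each gene (rows, by GC content of the longest protein-coding transcript) in each library (columns, by the library's slope of counts on GC content). *Bcan* runs from -1.06 in saline male 3 to 1.16 in saline male 2, and *Hapln1* runs the opposite way, from 0.489 to -0.329, while *Tnc* shows no such order.

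**Figure D4:**
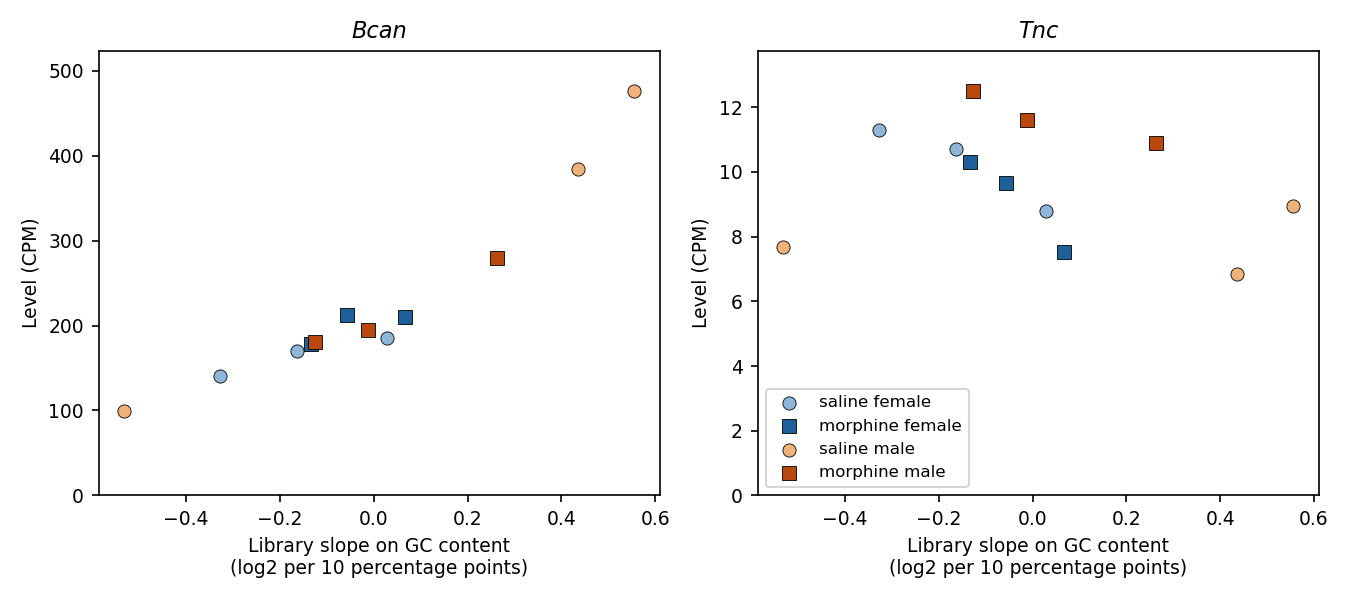
*Bcan* and *Tnc* levels (CPM, axes from 0) against the slope of each library's counts on GC content (log2 per 10 percentage points), 1 point per mouse. *Bcan* rises along the slope with an r of 0.985, and the 3 morphine males lie above the 3 saline males in *Tnc*, which has an r of -0.292.

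In the sex-combined dataset, none of the 10 genes was a DE gene. DE genes needed an absolute log2 fold change above 0.26 and an unadjusted *p* below 0.05 in edgeR's quasi-likelihood test, and 221 of 18608 tested genes (1.19%) met both, with 0 below 0.05 after Benjamini-Hochberg adjustment and 246 below it before. DESeq2 gave 0 members as well. Of the members, 6 were higher and 4 lower with morphine, with a median log2 fold change of 0.017 against -0.0203 for all genes. The largest estimate was that of *Hapln2*, at -0.27 (SE 0.144), with an unadjusted edgeR *p* of 0.0791 and a 95% interval from -0.58 to 0.04. Its exact permutation *p*, with treatment labels exchanged within sex, was 0.105 (two-sided). The estimate was -0.17 without saline male 2 and -0.10 without saline males 1 and 2. *Tnc* had a log2 fold change of 0.22 and *Has3* one of 0.15, and the other 7 lay between -0.12 and 0.06. The interval of *Bcan* was wide, from -0.76 to 0.51, while that of *Ncan*, from -0.21 to 0.20, leaves out a change of over 0.26 in either direction.

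In females, *Bcan* was the 1 DE gene of the 10, in a fit where 328 of 18109 tested genes (1.81%) passed both thresholds and 0 were below 0.05 after adjustment, against 3 with DESeq2. Its mean was 200.4 ± 19.5 CPM with morphine and 165.4 ± 22.5 CPM with saline (SD, n = 3 each). The log2 fold change was 0.27 (SE 0.113), with an unadjusted edgeR *p* of 0.037, an adjusted *p* of 1.0, and a 95% interval from 0.02 to 0.53. The 2 groups overlapped, since morphine female 2 (177.9 CPM) fell below saline female 4 (184.8 CPM), and the exact two-sided permutation *p* was 0.2, where 0.1 is the smallest that 3 against 3 can give. With the offsets for GC content and exon length the estimate was 0.10 and *Bcan* was not a DE gene, nor was it without saline female 5, saline female 6, morphine female 1, or morphine female 3 (0.30, 0.18, 0.23, and 0.23). Among the females the GC slope was lowest in saline females 6 and 5. The other 9 genes had log2 fold changes from -0.17 (*Tnc*) to 0.10 (*Ncan*). The median of the 10 was -0.0436 against -0.00576 for all genes, and 2 of the 10 were higher with morphine.

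In males, *Tnc* was the 1 DE gene of the 10, in a fit where 543 of 18166 tested genes (2.99%) were DE genes, 349 of them higher with morphine. Its mean rose from 7.82 ± 1.07 CPM with saline to 11.7 ± 0.785 CPM with morphine (SD, n = 3 each). The log2 fold change was 0.57 (SE 0.173), with an unadjusted edgeR *p* of 0.0132 and a 95% interval from 0.16 to 0.98. It did not hold after correction over all genes, where the adjusted *p* was 1.0 and 0 genes were below 0.05, with DESeq2 also at 0 and exactTest at 1. The groups did not overlap, as for 9.1% of all tested genes, and the exact two-sided permutation *p* was 0.1, the smallest this design allows. Without saline male 1 the log2 fold change of *Tnc* was 0.48, the unadjusted edgeR *p* was 0.0562, and it was no longer a DE gene. It remained one when any of the other 5 males was left out, with 0.61 without the library labelled morphine male 6, and with the offsets for GC content and exon length, where it was 0.55.

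None of the other 9 genes passed in males. *Bcan* had a log2 fold change of -0.55 (SE 0.511) and a 95% interval from -1.75 to 0.66, and it was -0.16 without saline male 2. *Hapln2* had -0.44 (SE 0.213), with an unadjusted edgeR *p* of 0.0757, and it was -0.24 without saline male 2 and -0.22 with the offsets. *Has3* had 0.29 (SE 0.18), with an unadjusted edgeR *p* of 0.156. Without the library labelled morphine male 6, *Bcan* was at -0.77, *Hapln2* at -0.54, and *Has3* at 0.23, and none of the 3 passed. For *Has3* the exact two-sided permutation *p* was 0.1, from log2 levels of 3.339 in saline male 3 and 3.347 in morphine male 4. Both mice were at 10.0 CPM, and the male groups were not counted as apart, so this *p* rests on a near tie. *Acan*, *Hapln4*, *Tnr*, and *Vcan* were between 0.04 and 0.11, and *Ncan* and *Hapln1* at -0.15 and -0.16. The intervals of these 6 genes reached past 0.26 in at least one direction, so that changes of that size lay within them. The median of the 10 was 0.0582 against -0.0639 for all genes.

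The difference between the sexes was tested with the interaction of treatment and sex, which reuses the same 12 mice. *Tnc* was again the 1 gene of 10 that passed, and 559 of 19027 tested genes (2.94%) did so. The change of *Tnc* was 0.76 greater in males than in females on the log2 scale (SE 0.24), with an unadjusted edgeR *p* of 0.00789, an adjusted *p* of 0.985, and a 95% interval from 0.24 to 1.28. The saline means of *Tnc* were 10.3 ± 1.31 CPM in females and 7.82 ± 1.07 CPM in males, and the morphine means were 9.14 ± 1.44 and 11.7 ± 0.785 CPM (SD, n = 3 each). *Tnc* passed when any 1 of the 12 mice was left out, with estimates from 0.64 to 0.86, and it was 0.81 without the library labelled morphine male 6. *Bcan* had an estimate of -0.80 (SE 0.561) with an interval from -2.02 to 0.42, and the other 8 were between -0.29 (*Hapln2*) and 0.33 (*Has3*).

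**Figure D5:**
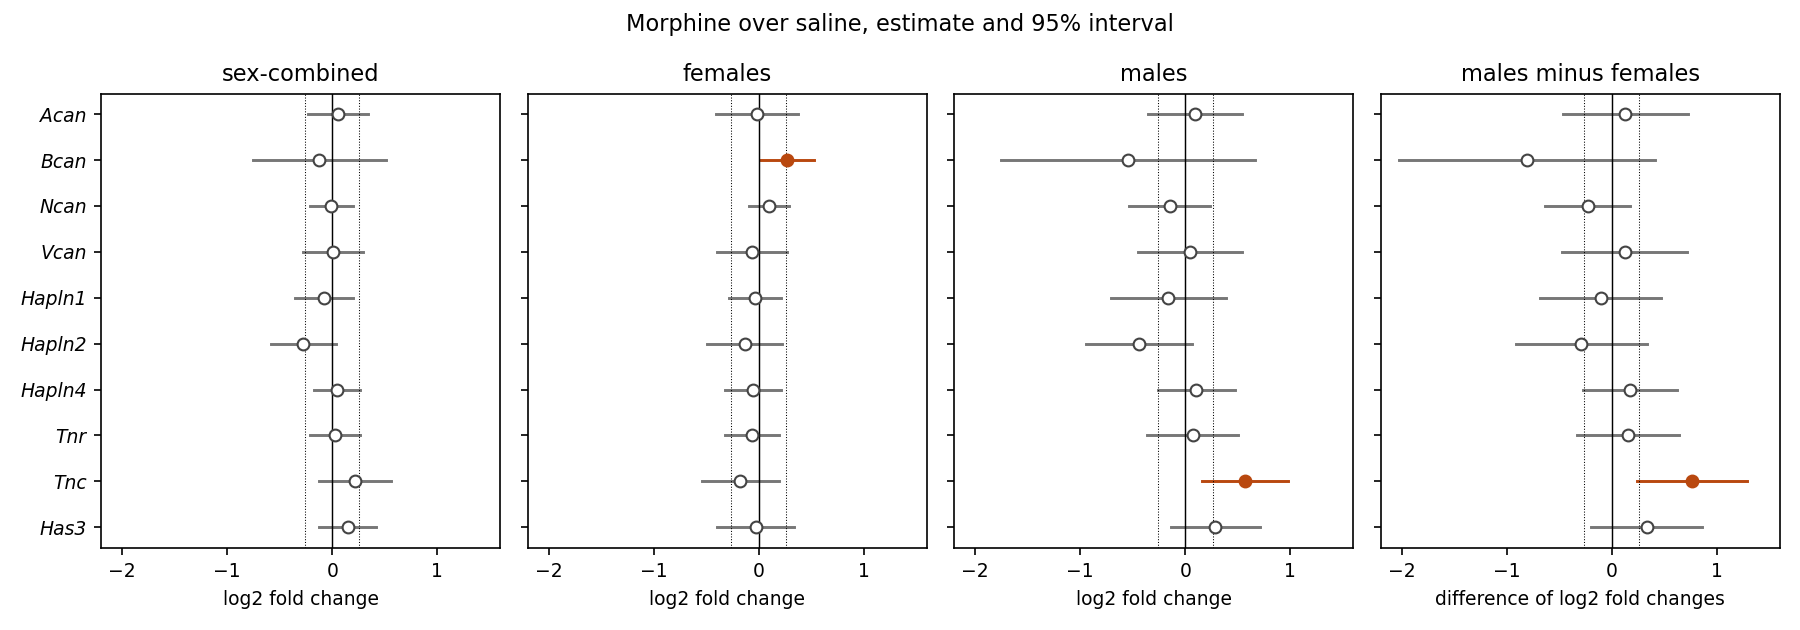
Estimated log2 fold change of morphine over saline (points) with its 95% interval (lines) for each gene in the sex-combined, female, and male fits, and the difference of the changes, males minus females. Filled points had an unadjusted *p* below 0.05 and lay beyond 0.26 in size (dotted lines), which were *Bcan* in females (0.27) and *Tnc* in males (0.57) and in the interaction (0.76).

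How many members were DE genes in males depended on which saline males were kept. Without saline male 3, 5 of the 10 genes were DE genes, in a fit where 28.6% of all tested genes were: *Bcan* at -0.94, *Hapln2* at -0.57, *Tnr* at 0.28, *Tnc* at 0.59, and *Has3* at 0.43 on the log2 scale. The adjusted *p* was 0.0208 for *Bcan*, 0.0457 for *Hapln2*, and 0.0435 for *Tnc* in edgeR. In that fit, 2141 of all 18652 tested genes were below 0.05 after adjustment. Without saline males 1 and 2, a choice made after the data were seen that left 1 saline male assumed to vary like the other group, 4 were DE genes against 31.1% of all genes. *Bcan* then changed sign, to 1.11, *Hapln1* was at -0.60, *Hapln4* at 0.38, and *Tnc* at 0.57. Without saline male 3 and with the offsets, another choice made after the data were seen, *Acan* (0.28), *Hapln4* (0.48), *Tnc* (0.67), and *Has3* (0.32) were DE genes against 18.6% of all genes. *Tnc* was the 1 gene on all 3 lists, and its estimates there ran from 0.57 to 0.67. In the sex-combined fit without saline males 1 and 2, *Bcan* was a DE gene at 0.55, where 11.7% of all genes were.

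The members were also compared with each other across mice. Pearson's r over the 12 mice, given as a description without a test because all levels come from the same libraries, was over 0.7 in 3 and under -0.7 in 6 of the 45 pairs. The highest was 0.949 for *Vcan* with *Tnr*, which was 0.65 after removal of the group means and with the offsets. *Acan* with *Hapln4* followed at 0.905, and it was 0.837 after the same adjustment. *Bcan* with *Ncan* had 0.804, which was 0.93 after removal of the group means alone and -0.848 with the offsets as well. Of the neighboring pairs, *Ncan* with *Hapln4* had 0.625, *Bcan* with *Hapln2* 0.552, and *Vcan* with *Hapln1* 0.548, which became 0.91, -0.657, and -0.696 with the adjustment. After removal of the group means alone they were 0.855, 0.553, and 0.567. With the offsets, *Bcan* still had an r of 0.915 with the library slope, and *Ncan*, *Hapln4*, and *Hapln2* had -0.621, -0.796, and -0.763. The adjusted values of pairs of these genes thus cannot be told apart from that slope.

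The genes most like *Bcan* and *Tnc* were sought among all tested genes by the r of log2 CPM over the 12 mice after removal of the 4 group means. For *Bcan* they were *Ddr1* (0.999), *Arl2* (0.998), and *Adam15* (0.998), whose transcripts had 59.7%, 59.1%, and 59.7% GC. *Tnc* was most like *Prox2os* (0.956), *Reck* (0.953), an inhibitor of matrix metalloproteinases, and *Cnot10* (0.941), with 49.8%, 48.4%, and 50.4% GC. With the offsets, *Ddr1* stayed first for *Bcan* at 0.989, and the first 3 for *Tnc* were *Gm25835*, *Smc5*, and *Wsb1*. These are the highest of 18585 values each.

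The genes that modify, cut, or bind the net were counted next. Of 64 genes on 5 lists, 61 were tested, and 1 rose and 1 fell in the sex-combined dataset, 0 rose and 1 fell in females, 2 rose and 1 fell in males, and 2 differed in one direction and 1 in the other in the interaction. These were 3.28%, 1.64%, 4.92%, and 4.92% of the 61, against 1.19%, 1.81%, 2.99%, and 2.94% of all genes, and the adjusted edgeR *p* of each was at least 0.985. Their median log2 fold change was -0.041, -0.032, and -0.102 in the 3 treatment fits, against -0.02, -0.006, and -0.064 for all genes. Among 18 matrix proteases, hyaluronidases, and inhibitors, *Mmp9*, a gelatinase that cleaves net components, fell (log2 fold change -0.36, SE 0.146) and *Timp1*, an inhibitor of such proteases, rose (0.50, SE 0.23) in the sex-combined dataset. Both were at low levels, with group means of 2.17 to 3.55 CPM and 0.567 to 1.14 CPM. *Adamts1*, a protease that cleaves lecticans, fell in females from 22.1 ± 2.3 to 17.9 ± 1.5 CPM, and was 17.5 ± 2.57 CPM in saline males and 21.5 ± 2.22 CPM in morphine males (SD, n = 3 each). The difference between its changes was 0.62 (SE 0.209) and passed the thresholds. *Cemip*, which is needed for the breakdown of hyaluronan, rose in males from 10.6 ± 0.42 to 15.1 ± 2.09 CPM (log2 fold change 0.50, SE 0.165), and its interaction estimate of 0.69 passed, like that of *Tnc*.

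Among 21 tested genes of chondroitin sulfate synthesis, *B3galt6*, which builds the linker between core protein and sugar chain, fell in males from 11.6 ± 1.11 to 8.66 ± 0.765 CPM (log2 fold change -0.43, SE 0.165). None passed in the sex-combined dataset, where 19 of the 21 had a negative estimate with a median of -0.056, against -0.02 for all genes. The median of all genes was thus also below 0, and genes measured in the same libraries are not independent. A shared fall of the list was not tested. *Chpf*, a chondroitin polymerizing factor named here after its values were seen, passed in the interaction (-1.61, SE 0.721). Its transcript had 63.2% GC and its level in saline males was 26.1 ± 18.7 CPM, against means of 7.25 to 10.7 CPM in the other groups. Of 8 other net and proteoglycan genes, *Otx2*, a homeoprotein that nets take up, rose in males (1.02, SE 0.413), from 3.06 ± 0.908 to 6.25 ± 3.03 CPM. It varied widely between mice, from 0.291 to 9.38 CPM, and was 1.77 ± 2.56 CPM in saline and 1.19 ± 0.0185 CPM in morphine females. Of the 3 remaining link protein and synthase genes, *Hapln3*, *Has1*, and *Has2*, and of 11 tested receptors and binding partners, 0 passed in any of the 4 fits by edgeR, and 0 had an unadjusted *p* below 0.05.

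Markers of other cells moved with some of these results, and their part in them was not tested. In males, 3 of 4 cerebellar granule cell markers (*Gabra6*, *Cbln3*, and *Fat2*, with *Neurod1* the fourth) rose with morphine, where *Tnc* also rose. Their summed level was 28.3, 26.6, and 29.2 CPM in saline males and 48.3, 76.8, and 36.2 CPM in morphine males, against 19.0 to 39.0 CPM in females. Of the 7 astrocyte markers, 0 passed in males and 7 had a negative estimate, with summed levels of 6035.0 to 7117.0 CPM with saline and 5577.0 to 6195.0 CPM with morphine. The sum of the 5 meningeal fibroblast markers was 97.2 to 151.9 CPM in saline males and 85.6 to 128.2 CPM in morphine males. In females, where *Adamts1* fell, it was 102.0 to 144.1 CPM with saline and 64.6 to 115.1 CPM with morphine, all 5 had a negative estimate (median -0.474), and *Dcn* fell (-0.76). All 5 were also negative in the sex-combined dataset, with *Dcn* at -0.49. All 6 markers of mature oligodendrocytes, which make *Hapln2*, had a negative estimate in males and *Mobp* passed (-0.42), with sums of 54550.0, 56800.0, and 36730.0 CPM in saline males and 31500.0, 38500.0, and 39940.0 CPM in morphine males. *Hapln2* and this sum were both highest in saline male 2, and saline male 3 lay within the morphine values on both. Females did not share this order. Among saline females, the highest sum (46590.0 CPM) came with the lowest *Hapln2* (33.3 CPM), in saline female 4. Among morphine females, the lowest sum (39180.0 CPM) came with the highest *Hapln2* (43.6 CPM), in morphine female 2. Saline males 1 and 2 also had the highest GC slopes and saline male 3 the lowest, and the part of either was not tested. Of 4 markers of oligodendrocyte precursors, *Olig2* fell in males (-0.45), and of 5 neuronal and 5 fast-spiking or glycinergic markers 0 passed in any fit, with sums of the latter from 944.0 to 1178.0 CPM.

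Of the pathway and marker genes named above, some no longer passed without the library labelled morphine male 6. *B3galt6* (-0.41) and *Olig2* (-0.47) in males, *Mmp9* (-0.30) and *Dcn* (-0.41) in the sex-combined dataset then missed the thresholds. Those that still passed were *Timp1* (0.57) in the sex-combined dataset, *Cemip* (0.56), *Otx2* (1.31), *Gabra6* (1.61), *Cbln3* (1.38), *Fat2* (0.91), and *Mobp* (-0.51) in males, and *Cemip* (0.76), *Adamts1* (0.70), and *Chpf* (-1.84) in the interaction.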

How the data were processed

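RNA from the brainstem of 12 mice, 1 library each, was sequenced by the authors as poly-A single-end reads on 1 lane. Trimmomatic was used for trimming, STAR for alignment to mm10, and featureCounts for counting over Ensembl GRCm38 exons. Tool versions are not given in the sources used here. The paper calls the deposited values normalized, but they are whole-number counts per gene with unequal totals (27850565 to 48097947) and were treated as raw counts. Depth and intervals cover counting error and the spread between mice, with 3 per group.

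Treatment and sex came from the labels. Genes were tested by quasi-likelihood in edgeR 4.0.16 (R 4.3.3, limma 3.58.1) with TMM and filterByExpr, fitted over all genes, adjusting for sex where both sexes were combined, on each sex alone, and with an interaction. Genes with an absolute log2 fold change above 0.26 and an unadjusted *p* below 0.05 were DE genes. An exact permutation test used 400 relabelings within sex or 20 splits within one sex. Levels are CPM with TMM factors over 12 libraries, and RPKM divides by the union of exons in GENCODE M21, to which all 55418 symbols matched (115 stand for more than 1 gene). Logs used a prior count of 2. No 2 of the 66 pairs of libraries held identical counts, and each pair differed by more than sampling noise (chi-square at least 7.26 times its degrees of freedom).

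Alternatives were DESeq2 1.42.0, DESeq2's size factors, total counts, no filter, a minimum of 10 counts per library, offsets for GC content and exon length by loess (span 0.5), exactTest, no covariate, a replicate block, contrasts from 12 mice, *p* alone, and leaving out each mouse. The scripts were first run on simulated counts in which 200 genes changed. The members, lists, and tests were chosen with earlier results of these data known. All members were named. Pathway genes were named where they passed in a treatment fit, and the 3 genes most like each member that passed were named. Marker genes were named where they touch a member's result. A check of the tissue by markers of brain region is not reported here.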

Additional observations from a re-analysis of the deposited data

Results flagged for a closer look

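*Tnc* passed the unadjusted thresholds in a test of the difference between the sexes itself. So did 2.94% of the 19027 tested genes, and 0 were below 0.05 after adjustment. The change of *Tnc* was 0.76 greater in males on the log2 scale (SE 0.24, unadjusted edgeR *p* of 0.00789, adjusted *p* of 0.985). All 3 morphine males lay above all 3 saline males, and the female groups overlapped. The groups did not overlap in males for 9.1% of all tested genes.

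*Has3* in morphine female 1 lay apart from the other 5 morphine mice. It was at 7.96 CPM against 10.0 to 11.6 CPM, a gap that made up 0.636 of the range on the log2 scale and passed Dixon's 95% limit. Over 20 groups of 6 mice tested in this way, chance passes about 1 in 20, and *Acan* was also lowest in this mouse.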

How the results depend on the processing

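Offsets for GC content and exon length, the filter, the replicate block, the contrast from all 12 mice, and single mice moved the number of members that passed, and neither scaling alternative did. In the sex-combined dataset it was 1 with no filter, with the replicate block, and without saline males 1 and 2, and 0 to 1 with each mouse left out. The 1 gene was *Hapln2* with no filter (-0.29), with the block (-0.27), and without saline male 3 (-0.35), saline female 4 (-0.33), or morphine female 2 (-0.37). Of all tested genes, 2.01%, 1.04%, 2.42%, 1.09%, and 1.19% passed in these fits. In females it was 0 with the offsets and in the contrast from all 12 mice, and 0 to 1 with each mouse left out. In males it was 4 without saline males 1 and 2, 4 without saline male 3 with the offsets, and 0 to 5 with each mouse left out. In the interaction it was 2 with no filter and 3 without saline male 3 with the offsets, where 4.44% and 15.4% of all genes passed. With each mouse left out it was 1 to 3. The interaction fit without saline males 1 and 2 left 1 saline male and is not counted in these numbers. Its largest estimates in size were 0.86 for *Bcan*, 0.77 for *Tnc*, -0.54 for *Hapln1*, and 0.46 for *Hapln4*. Without saline male 3, *Bcan* (-1.25), *Ncan* (-0.39), and *Tnc* (0.73) passed, as did 24.1% of all genes.

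Estimates changed sign as follows on the log2 scale, and the cause was not tested. Without saline males 1 and 2, *Bcan* was 0.546, *Ncan* 0.136, *Vcan* -0.125, and *Tnr* -0.101 in the sex-combined dataset, 1.108, 0.157, -0.303, and -0.236 in males, and 0.863, 0.085, -0.211, and -0.146 in the interaction, where *Hapln2* was 0.095. Without saline male 3 with the offsets, *Ncan* was 0.036 in the sex-combined dataset and 0.024 in males, *Vcan* was -0.018 in males and -0.04 in the interaction, and *Hapln2* was 0.111 and 0.39 in these. With the offsets alone, *Bcan* was 0.024, *Vcan* -0.006, and *Tnr* -0.002 in the sex-combined dataset, *Vcan* 0.018, *Hapln1* 0.043, *Tnr* 0.003, and *Has3* 0.017 in females, *Vcan* -0.031 and *Tnr* -0.007 in males, and *Vcan* -0.054, *Hapln2* 0.062, and *Tnr* -0.013 in the interaction. In the sex-combined dataset, *Ncan* was 0.043 by total counts and 0.00018 with the replicate block, and *Vcan* was -0.00035 with no filter. With each mouse left out, the sex-combined estimate ran from -0.025 to 0.125 for *Acan*, -0.296 to 0.093 for *Bcan*, -0.071 to 0.058 for *Ncan*, -0.052 to 0.074 for *Vcan*, -0.152 to 0.031 for *Hapln1*, -0.038 to 0.084 for *Hapln4*, and -0.028 to 0.077 for *Tnr*. In females it ran from -0.172 to 0.171 for *Acan*, -0.214 to 0.058 for *Vcan*, -0.131 to 0.039 for *Hapln1*, -0.167 to 0.059 for *Hapln4*, -0.143 to 0.059 for *Tnr*, and -0.136 to 0.085 for *Has3*. In males it ran from -0.082 to 0.277 for *Vcan*, -0.327 to 0.143 for *Hapln1*, and -0.032 to 0.282 for *Tnr*, and in the interaction from -0.082 to 0.285 for *Acan*, -0.018 to 0.303 for *Vcan*, and -0.27 to 0.143 for *Hapln1*. Direction and side of the thresholds were both kept by 203 of 240 estimates in the sex-combined dataset, 130 of 150 in females, 146 of 170 in males, and 190 of 210 in the interaction. *Tnc* kept its direction in all 4 fits under every alternative run.

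Over all genes, the DE genes were 221, 328, 543, and 559 in the 4 fits. They were 154 at the fewest (at least 10 counts in every library) and 2264 at the most (without saline males 1 and 2) in the sex-combined dataset, 208 (without morphine female 1) and 1482 (without saline female 4) in females, 253 (without morphine male 4) and 6055 (without saline males 1 and 2) in males, and 290 (without saline female 6) and 4695 (without saline male 3) in the interaction. With no filter they were 754, 1094, 985, and 1665, and with the offsets 322, 307, 1286, and 1208. Scaling by total counts moved the split of higher against lower from 113 and 108 to 181 and 68 in the sex-combined dataset, from 168 and 160 to 211 and 138 in females, and from 349 and 194 to 737 and 70 in males, where the median of all genes went from -0.0639 to 0.0614.

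The correlation of the deviations of mice with the same replicate number was between -0.356 and 0.183. Such mice differed in both sex and treatment, so these values cannot settle whether the replicate number pairs them. With the number as a replicate block, 204 genes passed in the sex-combined dataset against 221. No paired analysis was possible within a sex or for the interaction because the groups of one sex share no replicate number. With 3 mice per group, 3 against 3 cannot give an exact permutation *p* below 0.1, and *Tnc*, *Has3*, and *Acan* rested on the fewest reads.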
